A study of Mus with 6 samples.

Results

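The genes described here are the 9 that encode the CD3 chains of the T cell receptor (TCR) complex, the CD4 coreceptor, and the first kinases and adaptors below them. They were chosen by symbol (Cd3d, Cd3e, Cd3g, Cd247, Cd4, Lck, Zap70, Lat and Lcp2), and each was found once among the 10995 protein-coding genes of the table. RNA was measured in wild-type mouse CD4+ T cells that were naive when taken from the spleen. Both groups were stimulated for 3 days with antibodies to CD3 (5 μg/mL) and to CD28 (2 μg/mL), and IL-2 (100 U/mL) was added. They differed only in the further antibody at 1 μg/mL, which was an antibody that neutralizes VEGF-B (3 libraries) or normal goat IgG (3 libraries). The labels give no age or sex and do not say whether the libraries of a group came from separate animals or cultures, so that p-values measure the spread between these libraries, which may be technical. The comparison asks which of these genes changed when VEGF-B, a growth factor of the VEGF family, was neutralized.

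The TCR itself has no enzymatic activity. Its antigen-binding chains pair with CD3δ, CD3ε, CD3γ and the ζ chain, whose tails carry tyrosine motifs that the kinase LCK phosphorylates, and CD4 brings LCK to the receptor when it binds MHC class II. The kinase ZAP-70 docks on the phosphorylated motifs and phosphorylates the adaptors LAT and SLP-76, on which enzymes such as PLCγ1 gather to start calcium and Ras signaling. The stimulating antibody binds the CD3 proteins encoded by some of the genes measured here.

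The values are fractional and were used as FPKM, in which fragments are scaled to transcript length and library size. On that reading levels can be compared between genes, but the number of reads behind a value is unknown. The FPKM of all genes summed to between 260058 and 276622 in a library. Levels are given in FPKM, and changes as log2 fold changes of FPKM + 1 from limma. It was fitted to 8816 genes whose mean over the 6 libraries reached 1 FPKM, with p-values adjusted by the Benjamini-Hochberg method over all of them. This scale understates the change of low genes. The median change of all tested genes was -0.15, and 71.2% of them lay below 0. Of the 7 T cell markers checked, all were present, with a summed level of 435 to 486 FPKM with anti-VEGF-B and 481 to 614 with IgG. Il2ra (51.8 to 65.7 FPKM with anti-VEGF-B, 94.9 to 150 with IgG), Thy1, Cd5 and Cd3e lay lower with anti-VEGF-B. Cd4 (64.8 to 73.4 FPKM with anti-VEGF-B, 64.0 to 74.6 with IgG), Cd2 and Cd28 overlapped between the groups. Cd3e and Cd4 are also among the genes described here, and the sum does not measure the share of CD4+ T cells. Cd8a, the defining marker of CD8+ T cells, was at most 0.182 FPKM in any library. Its partner Cd8b1 was at 2.27 to 4.51 FPKM. Of 6 myeloid and dendritic markers 2 were in the table, and their sum was 18.0 FPKM in IgG replicate 3, mostly from Lyz2, against 3.55 to 4.50 in the anti-VEGF-B libraries, a range that also held the other IgG libraries. Of 4 B cell and 3 NK cell markers 1 each was listed, at 0.665 to 1.34 and at most 0.0943 FPKM, neither erythroid marker was listed, and of the endothelial markers Pecam1 was at 5.87 to 7.37 FPKM. Their part in the results was not tested.

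Lcp2, which encodes SLP-76, and Cd3e were lower with anti-VEGF-B, and the other 7 genes did not pass the test. The 2 genes called are 22.2% of the 9, where 28.7% of all tested genes were called, 23.8% lower and 4.87% higher, so the share called does not set these genes apart. At an unadjusted p under 0.05 there were 3 lower (Cd3g was the further gene) and 0 higher. Libraries of the groups lay apart for the same 2 genes, both with all anti-VEGF-B values below all IgG values, which was the case for 38.5% of all tested genes (49.0% in either direction). In these bulk RNA samples, fewer cells of a type and less RNA per cell cannot be told apart.

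**Figure D1:**
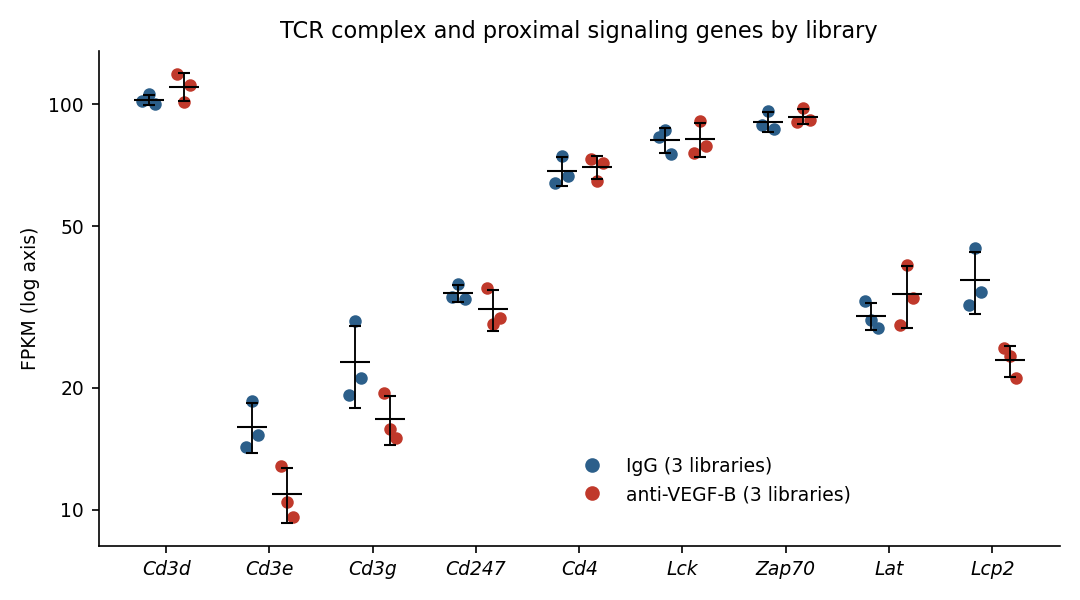
FPKM of the 9 genes (log axis) in each of the 3 IgG libraries (blue) and 3 anti-VEGF-B libraries (red), with the mean and SD as black bars. The groups lie apart for Cd3e and Lcp2 and overlap for the other 7 genes.

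The genes of the δ, ε and γ chains lie in a cluster of 40056 bases on chromosome 9 of GRCm38. Cd3g (ENSMUSG00000002033.14, 44969572 to 44980431, minus strand) and Cd3d (ENSMUSG00000032094.8, 44981786 to 44987339, plus strand) point away from each other with their starts 1355 bases apart, and Cd3e (ENSMUSG00000032093.7, 44998740 to 45009627, minus strand) follows 11401 bases beyond Cd3d. Their levels differed widely. Cd3d was the most abundant of the 9 genes, ranked 335 in the whole table by mean level, and Cd3e the least, at rank 2584.

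Cd3e encodes the ε chain, which takes part in both CD3 heterodimers of the receptor. It was at 14.2, 18.6 and 15.3 FPKM in IgG replicates 1 to 3 and at 12.9, 10.4 and 9.60 in anti-VEGF-B replicates 1 to 3. Every anti-VEGF-B library was below every IgG library, although anti-VEGF-B replicate 1 and IgG replicate 1 lay close together. The mean fell from 16.0 ± 2.27 to 11.0 ± 1.69 FPKM (SD, n = 3 each), to 68.3% of the IgG level. The log2 fold change was -0.51 (standard error 0.128, 95% interval -0.80 to -0.22), with an adjusted p of 0.0197 from limma. This call did not hold without IgG replicate 2 (adjusted p = 0.0586 from limma), anti-VEGF-B replicate 2 (0.0526) or anti-VEGF-B replicate 3 (0.0708), after median centring (0.0631) or with no moderation of the variance (0.112). Over the 17 alternatives the adjusted p ran from 0.0199 to 0.112.

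Cd3g encodes the γ chain, a partner of ε. Its levels were 19.2, 29.2 and 21.1 FPKM in the IgG group and 19.4, 15.9 and 15.0 with anti-VEGF-B. The groups overlapped through replicate 1 of each treatment, and IgG replicate 2 was the highest by far. The means were 23.1 ± 5.30 and 16.8 ± 2.36 FPKM, with a log2 fold change of -0.43 (standard error 0.153, adjusted p = 0.0621 from limma). Without IgG replicate 1 the adjusted p was 0.0361, against 0.0361 to 0.212 over the alternatives, and without IgG replicate 2 the log2 fold change was -0.26.

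Cd3d encodes the δ chain, the other partner of ε. It was at 102, 106 and 100.0 FPKM in the IgG group and at 119, 101 and 112 with anti-VEGF-B. Anti-VEGF-B replicates 1 and 3 lay above the IgG libraries and replicate 2 within them, for a log2 fold change of 0.10 (95% interval -0.07 to 0.28, adjusted p = 0.337 from limma).

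Cd247 (ENSMUSG00000005763.15, chromosome 1, 165788681 to 165877277) encodes the ζ chain, which carries most of the tyrosine motifs of the complex. Its levels were 33.4, 36.1 and 33.1 FPKM in the IgG group and 35.3, 28.7 and 29.6 with anti-VEGF-B. Anti-VEGF-B replicates 2 and 3 lay under all IgG libraries, and replicate 1 lay within them. The log2 fold change was -0.13 (95% interval -0.34 to 0.08, adjusted p = 0.297 from limma), near that of the median gene, and median centring gave 0.07. In RefSeq (GRCm38.p6) the span of Cd247 overlaps that of Pou2f1 by 12128 bases, and the strand used in counting is not stated, so reads of the shared stretch could have been given to either gene.

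Cd4 (ENSMUSG00000023274.14, chromosome 6, 124864692 to 124888221) encodes the coreceptor that gives these CD4+ cells their name. It was at 64.0, 74.6 and 66.5 FPKM in the IgG group and 73.4, 64.8 and 71.7 with anti-VEGF-B. The groups covered almost the same range, with a log2 fold change of 0.03 (95% interval -0.16 to 0.22, adjusted p = 0.780 from limma).

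Lck (ENSMUSG00000000409.14, chromosome 4, 129548344 to 129573641), which encodes the Src-family kinase bound to CD4, was at 82.9, 86.4 and 75.4 FPKM in the IgG group and 76.0, 91.0 and 78.8 with anti-VEGF-B. The log2 fold change was 0.0041 (95% interval -0.20 to 0.21, adjusted p = 0.976 from limma). Zap70 (ENSMUSG00000026117.10, chromosome 1, 36761798 to 36782818), the gene of the kinase that docks on the receptor, was at 88.8, 96.1 and 86.7 FPKM in the IgG group and 90.3, 97.9 and 91.6 with anti-VEGF-B. Coefficients of variation were 5.46% and 4.36%, and the log2 fold change was 0.04 (95% interval -0.12 to 0.21, adjusted p = 0.673 from limma). For both kinase genes each group's mean lay within the other group's range.

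The adaptor genes Lat and Lcp2 stood at opposite ends of the order of changes. Lat (ENSMUSG00000030742.7, chromosome 7, 126363824 to 126369570), which encodes a membrane-bound scaffold, was at 32.7, 29.4 and 28.1 FPKM in the IgG group and 28.5, 40.2 and 33.3 with anti-VEGF-B. Anti-VEGF-B replicate 2 was the highest library, and the lowest of each group were nearly equal, with a log2 fold change of 0.16 (95% interval -0.11 to 0.43, adjusted p = 0.327 from limma).

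Lcp2 (ENSMUSG00000002699.13, chromosome 11, 34046920 to 34092295) encodes SLP-76, the cytosolic adaptor that GADS ties to LAT. It was at 32.0, 44.2 and 34.4 FPKM in the IgG group and at 25.1, 23.9 and 21.1 with anti-VEGF-B. The highest anti-VEGF-B library was below the lowest IgG library, with a gap wider than the range of the anti-VEGF-B values. The mean fell from 36.9 ± 6.47 to 23.4 ± 2.05 FPKM (SD, n = 3 each), to 63.4% of the IgG level. The log2 fold change was -0.63 (standard error 0.122, 95% interval -0.90 to -0.35, adjusted p = 0.00990 from limma), and 5.90% of tested genes had a lower value. RefSeq lists a long noncoding RNA that overlaps its span. IgG replicate 2 was the highest library, and without it the log2 fold change was -0.49 (adjusted p = 0.0182 from limma). The adjusted p was at most 0.0395 in 16 of the 17 alternatives and 0.0881 with no moderation.

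**Figure D2:**
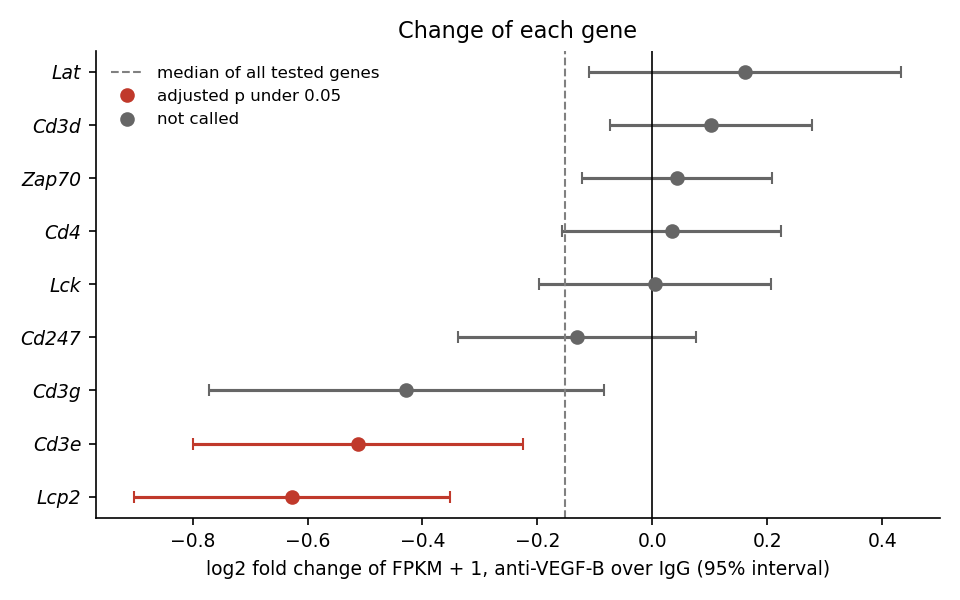
log2 fold change of FPKM + 1 (anti-VEGF-B over IgG, points) of each gene with its 95% interval from limma (bars). Red marks the genes with an adjusted p under 0.05, and the dashed line the median of all tested genes at -0.15. The 2 called genes lie at -0.63 (Lcp2) and -0.51 (Cd3e).

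The values of the 9 genes moved with the scaling between libraries, upward for each gene under median centring and in either direction under quantile and cyclic loess normalization. Their median log2 fold change was 0.0041 as deposited, -0.03 after quantile normalization, -0.03 after cyclic loess and 0.20 after median centring, while that of all tested genes was -0.15, 0.0077, 0.0019 and 0.05. Relative to all genes, 6 of the 9 therefore lay above the median as deposited and 4 after quantile or cyclic loess normalization. Lcp2, Cd3e and Cd3g were below 0 under every scaling run. After median centring Cd3d (0.30, adjusted p = 0.0412 from limma) and Zap70 (0.24, adjusted p = 0.0467) passed the test as higher, and Cd3e (-0.31) did not pass. Median centring called 1365 of the 8816 tested genes higher, against 429 as deposited. Under the other 4 scalings Lcp2 and Cd3e were called, and no further gene.

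**Figure D3:**
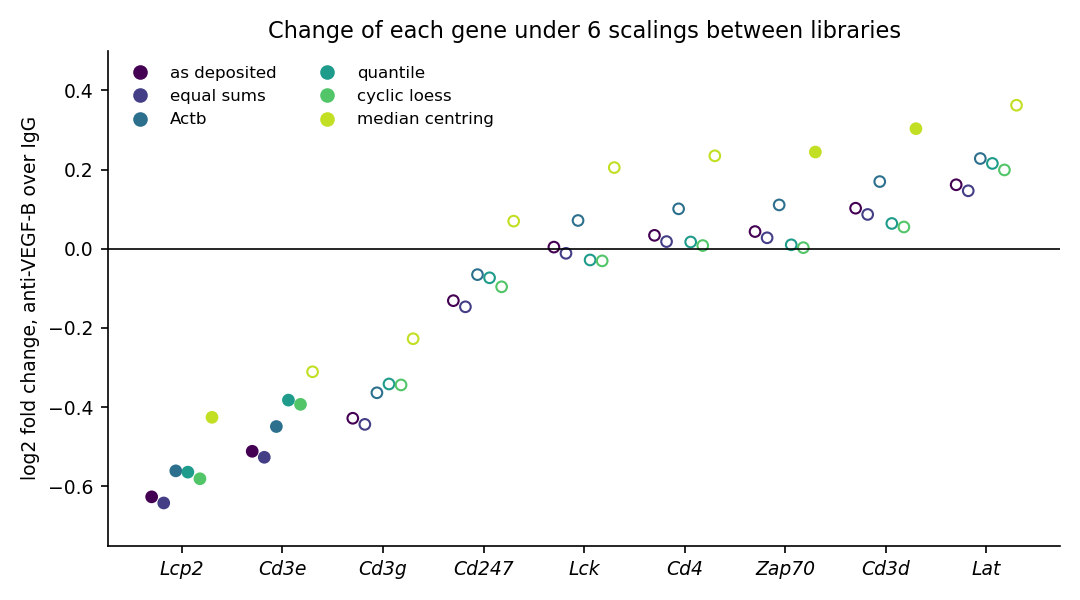
log2 fold change (anti-VEGF-B over IgG) of each gene under 6 scalings between libraries, one color per scaling. Filled points have an adjusted p under 0.05 in limma. Lcp2 is filled under each, Cd3e under all but median centring, and Cd3d and Zap70 only under median centring.

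The order of the levels was much the same in both groups. With IgG, Cd3d (103 ± 2.92 FPKM) was followed by Zap70 (90.5 ± 4.94), Lck (81.6 ± 5.59) and Cd4 (68.4 ± 5.56), and the ranges of neighbors in this order did not overlap. A lower tier held Lcp2 (36.9 ± 6.47), Cd247 (34.2 ± 1.64), Lat (30.1 ± 2.37), Cd3g (23.1 ± 5.30) and Cd3e (16.0 ± 2.27). The ranges of Lcp2 and Cd247 overlapped, as did those of Lat and Cd3g, so that these neighbors were not separated beyond their spread. With anti-VEGF-B, Lcp2 moved from place 5 to place 7, behind Lat and Cd247. The other places were kept except that Lat came to stand at place 5. The anti-VEGF-B ranges of Lat (28.5 to 40.2 FPKM) and Cd247 (28.7 to 35.3 FPKM) overlapped, so their order was within the spread.

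Ratios between genes of the same library are unaffected by scaling each library with a single factor, though not by quantile or cyclic loess normalization, and 6 of them were compared on the FPKM as deposited. An exact permutation test of 3 against 3 libraries (two-sided) cannot go below p = 0.1, so none could pass a threshold of 0.05. The groups lay apart in 3 of the 6. Each of these holds Cd3e or Lcp2, the 2 genes already called, so they are not evidence separate from those calls. Cd3d exceeded Cd3e by 5.69 to 7.16 times in the IgG libraries and by 9.23 to 11.6 times in the anti-VEGF-B libraries (exact p = 0.1, 0.2 adjusted over the 6 ratios). The mean log2 ratio rose from 2.69 ± 0.167 to 3.34 ± 0.175 (SD, n = 3 each). Set against the same Cd3e values, Cd247 exceeded Cd3e by 1.94 to 2.35 times with IgG and by 2.75 to 3.09 times with anti-VEGF-B (exact p = 0.1, adjusted 0.2). Cd3e thus made up 10.5% to 12.1% of the FPKM of the 3 CD3 genes with IgG and 7.05% to 8.52% with anti-VEGF-B. The ratio of Lcp2 to Lat was 0.979 to 1.50 with IgG and 0.594 to 0.881 with anti-VEGF-B (exact p = 0.1, adjusted 0.2).

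In the other 3 ratios the groups overlapped. Cd3g to Cd3e was 1.34 to 1.57 with IgG and 1.51 to 1.56 with anti-VEGF-B (exact p = 0.4, adjusted 0.48). Zap70 to Lck was 1.07 to 1.15 and 1.08 to 1.19 (exact p = 0.4, adjusted 0.48), and Cd4 to Lck was 0.772 to 0.881 and 0.712 to 0.966 (exact p = 0.8, adjusted 0.8). The ratios of Zap70 and of Cd4 to Lck thus did not separate the groups.

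**Figure D4:**
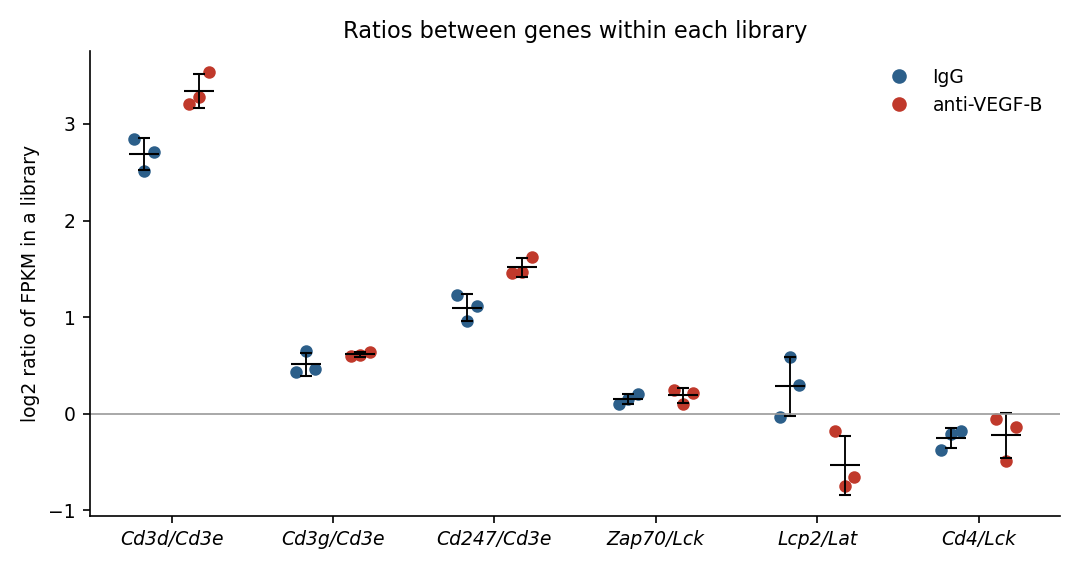
log2 ratio of FPKM between pairs of genes in each library (blue, IgG; red, anti-VEGF-B), with mean and SD as black bars. The groups lie apart for Cd3d/Cd3e, Cd247/Cd3e and Lcp2/Lat.

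Other genes of proximal TCR signaling were listed by role from general knowledge. Of 76 listed, 73 were in the table and 71 were tested (Cd8a and Sla2 had a mean under 1 FPKM). Of these, 19 fell and 3 rose after neutralization, together 31.0% against 28.7% of all tested genes, so their share of calls was close to the background. Their median log2 fold change was -0.13, against -0.15 for all tested genes. All 19 kept a value below 0 under the 5 other scalings. Called under each of these were 8 of them, among them Grap2, Map4k1, Orai1, Ptpn11, Rasgrp1, Sh3bp2 and Vav3. The 3 that rose kept a value above 0, and 1 of them, Ptpn2, was called under each. Trat1, Csk, Dgkz, Ubash3a and Orai2, described below, did not pass after median centring (adjusted p of 0.0803, 0.0661, 0.0587, 0.168 and 0.133 from limma). After median centring the split was 9 lower and 11 higher, where that of all tested genes was 807 and 1365. With no moderation of the variance none of the 71 passed (18 lower and 4 higher at an unadjusted p under 0.05).

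**Figure D5:**
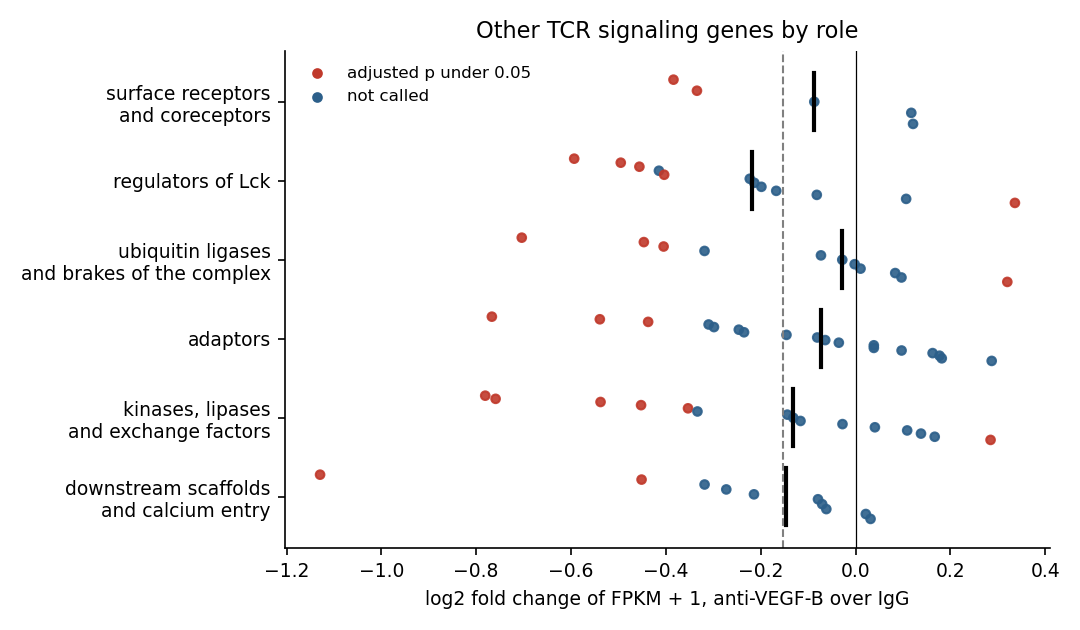
log2 fold change of FPKM + 1 (anti-VEGF-B over IgG) of the 71 tested genes by role, each point a gene, red for an adjusted p under 0.05 in limma. Short black bars are the role medians and the dashed line is the median of all tested genes. The lowest point is Orai1, at -1.13.

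Among the adaptors, 3 of 18 were lower and 0 higher (median -0.07). The largest fall was that of Grap2, the gene of GADS, the partner that joins SLP-76 to LAT. It was at 23.5, 38.8 and 28.8 FPKM in the IgG libraries and at 18.6, 19.3 and 13.9 after neutralization, with no overlap (log2 fold change -0.77, adjusted p = 0.0155 from limma). Sh3bp2 (-0.54, adjusted p = 0.0147) and Trat1, whose product associates with the TCR itself (-0.44, adjusted p = 0.0116), were the others. Grap, the most abundant of the adaptors, was at 152 ± 12.2 FPKM in the IgG group and 144 ± 6.70 with anti-VEGF-B (adjusted p = 0.462).

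Among kinases, lipases and exchange factors, 5 of 15 were lower and 1 higher (median -0.13). Rasgrp1, which activates Ras below the receptor, dropped to 17.5 ± 2.45 FPKM against 30.9 ± 5.22 with IgG (-0.78 on the log2 scale, limma adjusted p = 0.00738). Vav3, the gene of a guanine nucleotide exchange factor, fell from 3.24 ± 0.237 to 1.92 ± 0.158 FPKM (-0.54, adjusted p = 0.00901). Pik3cd, the most abundant of these genes, had -0.14 (adjusted p = 0.383). The gene called higher was Pik3r1 (0.28, adjusted p = 0.0428), which was named after its values were seen.

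Of 12 regulators of LCK, 4 were lower and 1 higher (median -0.22). Csk, whose kinase places the inhibitory phosphate on LCK, went from 17.1 ± 1.68 FPKM with IgG down to 12.2 ± 1.48 (-0.46 on the log2 scale, limma adjusted p = 0.0171). The phosphatase gene Ptpn11, which encodes SHP2, had -0.59 (adjusted p = 0.0141) and the adaptor gene Dok2 -0.50 (adjusted p = 0.0170). Ptpn2, the most abundant of this group, was higher, at 70.8 ± 8.19 FPKM in the IgG group and 89.2 ± 3.62 with anti-VEGF-B (0.34, adjusted p = 0.0273).

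Of 11 tested genes of ubiquitin ligases and other brakes of the complex, 3 were lower and 1 higher (median -0.03). Map4k1, the gene of HPK1, a kinase that restrains SLP-76, was lower, at 6.23 ± 1.34 FPKM with IgG against 3.39 ± 0.233 (-0.70 on the log2 scale, limma adjusted p = 0.00936). Dgkz, whose enzyme removes diacylglycerol, had -0.45 (adjusted p = 0.0145) and Ubash3a -0.40 (adjusted p = 0.0381). Dgka, the most abundant of them, had 0.01 (adjusted p = 0.933). The ubiquitin ligase gene Cblb, named after its values were seen, was the one called higher (0.32, adjusted p = 0.0215).

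Of 5 surface receptor genes tested, 2 were lower and 0 higher (median -0.09). Cd5 fell to 62.0 ± 7.07 FPKM from 81.4 ± 11.0 (-0.38 on the log2 scale, limma adjusted p = 0.0343) and Cd6 from 49.4 ± 5.64 to 38.9 ± 4.17 (-0.33, adjusted p = 0.0416). Neither passed after median centring (adjusted p of 0.197 and 0.309). Cd28, the receptor bound by the costimulating antibody, was at 136 ± 9.96 and 147 ± 3.37 FPKM (0.12, adjusted p = 0.254). After median centring Cd28 passed as higher (0.32, adjusted p = 0.0383 from limma). Among 10 downstream scaffold and calcium entry genes, 2 were lower and 0 higher (median -0.15). Orai1, the pore of the calcium channel that opens after TCR signaling, was at 7.29, 9.84 and 8.43 FPKM in the IgG group and 2.79, 3.25 and 4.02 with anti-VEGF-B, a wide gap (-1.13, adjusted p = 0.00469). Orai2 had -0.45 (adjusted p = 0.0376), and Malt1, the most abundant, had -0.27 (adjusted p = 0.0600).

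The nearest tested genes on either side of the Cd3 cluster were Ube4a, 3972 bases before Cd3g, and Mpzl3, 45559 bases beyond Cd3e. Ube4a was at 10.2 ± 0.811 FPKM in IgG and 9.06 ± 0.426 in anti-VEGF-B libraries (log2 fold change -0.16, adjusted p = 0.202 from limma). Mpzl3 was low, at 3.05 ± 0.245 and 1.96 ± 0.206 FPKM, and passed the test (-0.45, adjusted p = 0.0158 from limma, and 0.0713 after median centring).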

How the data were processed

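Libraries were made with a stranded kit. The authors mapped reads with hisat2 on GRCm38 and obtained gene values with StringTie and Ballgown. They deposited 1 value per gene and library, in a table named as raw data, and these values were used as FPKM. Since its values are fractional, no count model was applied and depth is unknown. Normalization across libraries and the choice of the 10995 genes are not stated. All 6 columns were matched to samples by their labels.

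limma 3.58.1 in R 4.3.3 (empirical Bayes with trend, no covariate) was fitted to log2(FPKM + 1) of 8816 genes whose mean reached 1 FPKM. Genes were called at a Benjamini-Hochberg adjusted p under 0.05. In simulated data with 200 of 8816 genes changed, the fit recovered 41.0% of log2 changes of 0.5 and 92.5% of those of 1.0. These rates need not hold for the real data, where 28.7% of tested genes were called and the adjusted cutoff was less strict. Within-library ratios were compared by exact permutation (SciPy 1.17.1). Named besides the 9 genes were, per role, the 3 called genes that changed most and the most abundant one, and the neighbors of the Cd3 cluster, except that some results are not reported here. RefSeq (GRCm38.p6) held all 9 symbols. The 9 genes, the lists and the tests were chosen with earlier results of these data known. The genes of the antigen-binding chains were not analysed here.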

Additional observations from a re-analysis of the deposited data

How the results depend on the processing

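Over the 17 alternatives of the fit and 2 other thresholds, 2 of the 9 genes were called lower and 0 higher in most settings. The count lower was 1 after median centring, where 2 were higher, 1 at an adjusted p under 0.01 and 0 with no moderation of the variance (2 lower and 0 higher at an unadjusted p under 0.05). It ran from 1 to 3 when 1 library was left out, with 1 without anti-VEGF-B replicate 2, anti-VEGF-B replicate 3 or IgG replicate 2, and the count higher was 0 each time. Without IgG replicate 3, which had the higher myeloid markers, it was 2. The replicate block gave 2 lower and 0 higher. The replicate numbers were not taken as pairing the libraries, since deviations from the group means correlated by -0.03, 0.11 and 0.09 for libraries of the same number, and not every library correlated best with its own number. For the 71 other TCR genes the block gave 23 lower and 3 higher.

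Of those 71 genes, 19 were lower and 3 higher, against (lower, higher) 12 and 6 with quantile scaling, 9 and 11 with median centring, 14 and 1 with Actb scaling, 13 and 6 with cyclic loess, 11 and 3 with a mean of at least 5 FPKM, 0 and 0 with no moderation (18 and 4 at an unadjusted p under 0.05), 8 and 0 at the fold limit (log2 change beyond 0.5, unadjusted p under 0.05), and 4 and 0 at an adjusted p under 0.01. When 1 library was left out the counts ran from 6 to 21 lower and from 0 to 3 higher, with 6 and 0 without anti-VEGF-B replicate 3 and 12 and 0 without IgG replicate 2. Over all tested genes, 2099 were lower and 429 higher, against 913 and 880 (quantile), 807 and 1365 (median), 938 and 852 (cyclic loess), 1309 and 365 (Actb), 989 and 342 with a mean of at least 5 FPKM, 998 and 123 at the fold limit, 407 and 106 at an adjusted p under 0.01 and 6 and 6 with no moderation. They ran from 702 to 2074 and from 163 to 395 without 1 library, with 702 and 163 without anti-VEGF-B replicate 3, 1073 and 257 without IgG replicate 2, and 1389 lower without anti-VEGF-B replicate 1.

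The log2 fold change turned sign only for genes that were not called: Cd247 was at 0.070 under median centring, and Lck at -0.028 (quantile), -0.012 (equal sums) and -0.031 (cyclic loess). Without 1 library Lck ran from -0.073 to 0.055 and Cd4 from -0.012 to 0.098. The within-library ratios moved by less than 1 SD. FPKM carry no depth, so the precision from counting is unknown. The cause of the differences between settings was not tested.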
